A study of Mus musculus with 6 samples.

Results

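A set of 32 genes of endoplasmic reticulum (ER) chaperones and the unfolded protein response was followed in B16F10 spheroids grown with BMP2 or with PBS. The set was given as a list of gene symbols, and no measured value enters the rule that picks its rows. Of the 32 symbols, 30 had a row in the table of 34981 genes, and Sdf2l1 and Creld2 were not analysed here. B16F10 is a mouse melanoma cell line of C57BL/6 origin, and BMP2 is a secreted growth factor that signals through SMAD proteins. The BMP2 group held 3 cultures that received the ligand at 100 ng/ml for 10 days, and the PBS group held 3 cultures given PBS for the same time. All cultures were of the same line and began with 500 cells in 50 µl of Matrigel, a basement membrane extract, at 7 mg/ml. The labels place 1 culture of each group in each of 3 batches, which are repeats of the whole experiment. The comparison asks how gene expression in the melanoma cells differs when BMP2 is present.

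Proteins that enter the secretory pathway pass through the translocon into the ER, where chaperones and disulfide isomerases fold them, and those that fail are sent back to the cytosol for degradation. When unfolded proteins build up, the sensors IRE1, PERK and ATF6 are activated, and the factors they release raise the transcription of chaperone and degradation genes. Melanocytic cells make large amounts of membrane glycoproteins such as tyrosinase, which fold with the help of the lectin chaperones calnexin and calreticulin.

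The libraries held 27821900 to 36856500 estimated counts. Levels are given in CPM, counts scaled to the size of the library and by the trimmed mean of M values (TMM), and the library PBS 1 had the lowest scaling factor at 0.872 against 0.975 to 1.09 in the others. The 10 melanocyte lineage markers were all tested, and their summed level was 29781 to 40746 CPM in BMP2 libraries and 24079.6 to 27497 CPM in PBS libraries. All 10 were higher with BMP2 in all 3 batches, against 22.8% of all genes tested. Without batch edgeR called 0 of the 10. With batch as a block, Gpr143 and Trpm1 of this list were higher in BMP2 libraries (edgeR adjusted p = 0.0190 and 0.0360), against 0.371% of all genes. In that fit all 10 were at an unadjusted p under 0.05, against 17% of all genes. Markers of fibroblasts summed to 3.88 to 8.08 CPM in BMP2 libraries and 6.01 to 11.1 CPM in PBS libraries, over 10 genes with Dpt and Twist2 at 0. Leukocyte markers summed to 3.47 to 6.57 CPM in BMP2 libraries and 5.24 to 6.54 CPM in PBS libraries, with Adgre1 among those at 0. Endothelial markers summed to 5.04 to 16 CPM in BMP2 libraries and 6.54 to 9.56 CPM in PBS libraries, over 8 genes with Cdh5, Tek and Cldn5 at 0.

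The ER stress response element (ERSE) and its variant ERSE-II are the promoter sequences through which ATF6 and XBP1 are known to act on chaperone genes. They are shown because they mark which of the 30 genes carry the textbook site of the response. Promoter windows from 250 bases before to 50 bases after the gene start, from RefSeq on GRCm38.p6, were matched for 24 of the 30 genes by symbol. Gene positions given further below come from GENCODE M21, whose starts can differ from those of RefSeq. The Hspa5 stretch lies inside the GENCODE span of that gene. Atf6, Derl1, Hyou1, Manf, Sec61a1 and Ssr2 had no window. The ERSE was searched as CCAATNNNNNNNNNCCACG, ERSE-II as ATTGG, 1 base of any kind and CCACG, and the unfolded protein response element (UPRE) as TGACGTGG, each on both strands. The 3 motifs overlap, since all hold CCACG or its reverse complement, and ERSE and ERSE-II both hold the CCAAT box in one orientation or the other. The lines below run 5′ to 3′ on the strand of the gene, with 12 bases on either side and the match in capitals.
Hspa5 (chr2:34772013-34772055, plus strand): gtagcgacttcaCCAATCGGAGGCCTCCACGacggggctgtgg
Hsp90b1 (chr10:86705521-86705668, minus strand, both matches): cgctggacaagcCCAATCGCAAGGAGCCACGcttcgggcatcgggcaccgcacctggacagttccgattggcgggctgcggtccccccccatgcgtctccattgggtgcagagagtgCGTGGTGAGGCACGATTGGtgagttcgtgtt
Dnajc3 (chr14:118937815-118937857, plus strand): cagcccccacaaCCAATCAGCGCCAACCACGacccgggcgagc
Calr (chr8:84847063-84847105, minus strand): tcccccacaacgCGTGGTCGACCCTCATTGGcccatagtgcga
Canx (chr11:50325788-50325830, minus strand): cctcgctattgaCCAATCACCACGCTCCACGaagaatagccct
Pdia6 (chr12:17266479-17266521, plus strand): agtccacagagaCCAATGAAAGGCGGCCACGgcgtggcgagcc
Syvn1 (chr19:6046520-6046562, plus strand): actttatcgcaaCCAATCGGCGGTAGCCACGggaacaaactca
Herpud1 (chr8:94386365-94386399, plus strand, ERSE-II): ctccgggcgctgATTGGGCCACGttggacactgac

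An ERSE match was found in the windows of 8 of the 24 genes (33.3%), the 7 with an ERSE printed above and Derl3, against 37 of 27025 genes with a window (0.137%). ERSE-II was found in Herpud1 and Dnajb11, which is 8.33% of the 24 against 0.0444% of all genes with a window. The Dnajb11 match does not lie wholly before the gene start and is not printed. The UPRE letters were in none of the 24 windows and in 0.714% of all genes with a window. Of the 8 genes with an ERSE, 7 were tested, and their log2 fold changes (BMP2 minus PBS throughout) ran from -0.42 to 0.39 with a median of -0.08. The 16 tested genes with a window and no ERSE ran from -0.58 to 0.41 with a median of -0.12. Both ERSE-II genes are among these 16, and the difference between the 2 sets was not tested. A match is a description of letters in the window, and binding was not measured. The elements are known for chaperone genes and the set lists such genes, so their shares among the 24 are no test.

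No gene of the set differed between BMP2 and PBS spheroids at an adjusted p under 0.05 in edgeR with its filter, without or with batch as a block. The set was among the well expressed genes, with mean levels over the 6 libraries from 43.6 to 4021 CPM for the 29 genes that passed the filter on low counts. Their median log2 fold change was -0.08, against 0.01 for all 12929 genes tested. Of the 29, 10 were above 0 and 19 below, against 6610 and 6319 of all genes tested. Dnajb11, Dnajc3 and Derl2 were higher with BMP2 in every batch, and P4hb, Canx, Sec61b and Sec63 were lower in every batch. For the other 22 genes the batches disagreed in direction. A common direction in all 3 batches thus held for 24.1% of the 29 genes, against 43.9% of all genes tested.

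Genes were tested with edgeR's quasi-likelihood test on treatment alone, without batch, and p-values were adjusted by Benjamini-Hochberg across the whole table. It called 0 of 29 genes of the set, against 0.0464% of all genes tested (0.00773% higher and 0.0387% lower with BMP2), and adjusted p in edgeR lay between 0.883 and 0.998 over the set. At an unadjusted p under 0.05 edgeR called 0 of 29, against 5.38% of all genes. DESeq2's Wald test also called 0 of 29, against 1.03% of all genes, with 1 at an unadjusted p under 0.05. Limma with quantile normalization called 0 of 29, against 0.0696% of all genes, again with 1 at that level. With batch as a block, edgeR called 0 of 29, against 0.735% of all genes (0.371% higher and 0.364% lower), and 5 of 29 at an unadjusted p under 0.05, against 17% of all genes. Those 5 were Dnajb11, Dnajc3 and Derl2 with higher levels in BMP2 libraries, and Canx and P4hb with lower levels. Adjusted p in edgeR with the block lay between 0.168 and 0.998 over the set. Without the block, the p-values set the difference between groups against the spread of the 3 libraries within each group. With the block, they set it against the spread of the differences within the 3 batches. In bulk RNA, fewer cells of a type and less RNA per cell cannot be told apart.

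**Figure D1:**
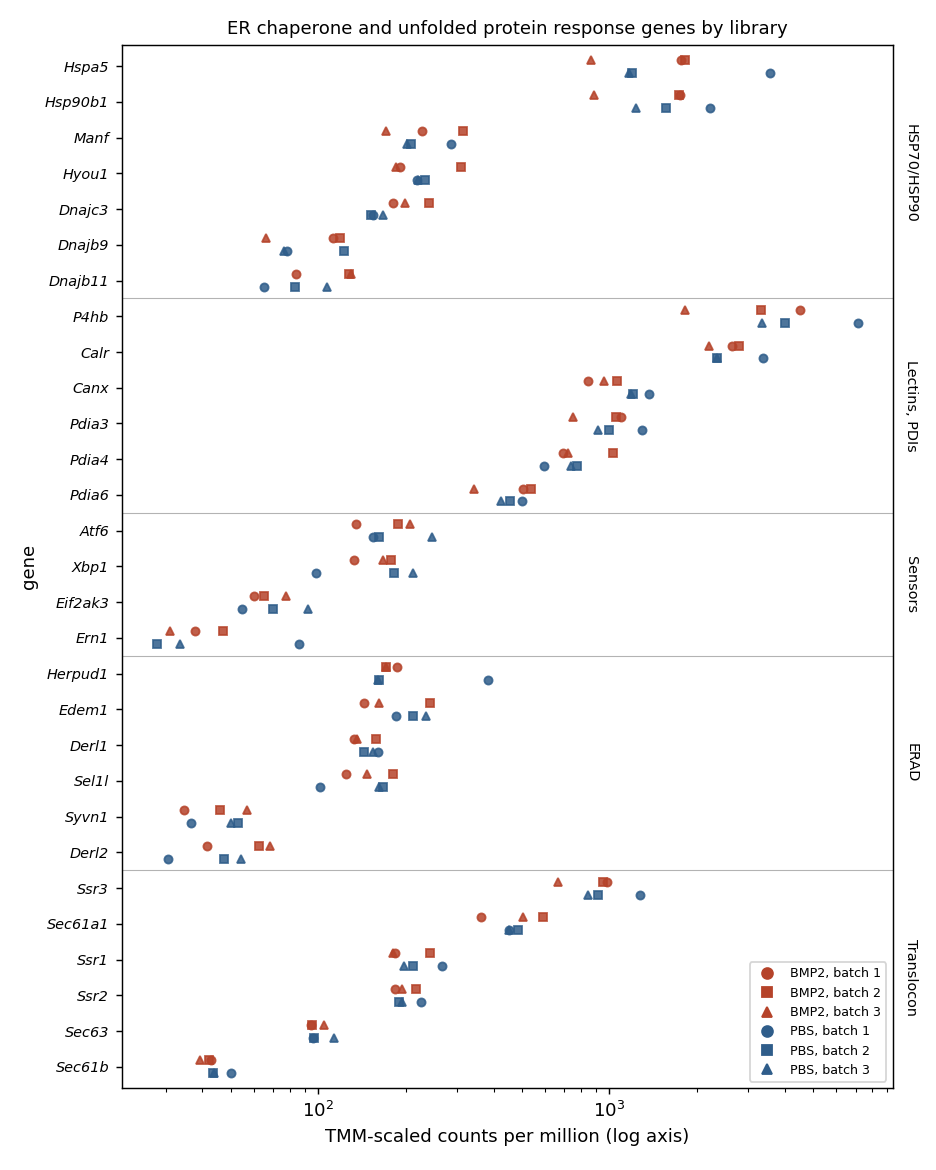
Level of each of the 29 tested genes in each library, in TMM-scaled CPM on a log axis, with BMP2 libraries in red above PBS libraries in blue and a marker shape for each batch. Points of both colours interleave for all genes but Dnajc3, Canx and Sec61b, and the PBS circle of batch 1 lies far to the right for Hspa5, P4hb, Ern1 and Herpud1.

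The HSP70 and HSP90 of the ER lumen were both highest in PBS 1 and lowest in BMP2 3. Hspa5 (BiP, ENSMUSG00000026864, chr2:34771970-34777547), the HSP70 of the ER and the sensor-binding chaperone, had 1764, 1813 and 864 CPM in the BMP2 libraries of batches 1, 2 and 3, against 3563, 1195 and 1169.7 CPM in the PBS libraries. PBS 1 stood far above the other libraries, and the groups overlapped. The log2 fold change was -0.42 (95% interval -1.54 to 0.71), and without PBS 1 it was 0.32. Hsp90b1 (GRP94), the HSP90 of the ER, had 1752, 1728 and 884 CPM in BMP2 libraries and 2211, 1567 and 1236 CPM in PBS libraries. The groups overlapped, with a log2 fold change of -0.20 (SE 0.33). Without PBS 1 that value was 0.05, and without BMP2 3 it was 0.06.

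Of the partners of HSP70, Dnajc3 and Dnajb11 were higher with BMP2 in each batch. Dnajc3 (P58IPK, ENSMUSG00000022136, chr14:118937976-118981697), a J-domain co-chaperone of BiP, had 181, 239.9 and 199 CPM in BMP2 libraries and 155, 152 and 166 CPM in PBS libraries. It was the gene of the set whose BMP2 libraries all lay above its PBS libraries, which held for 6.42% of all genes tested. Its log2 fold change was 0.39 (SE 0.18) without the block. With batch as a block it was 0.38 (SE 0.14), and edgeR gave an adjusted p of 0.266. Dnajb11 (ERdj3, ENSMUSG00000004460, chr16:22857845-22879634), another J-domain partner of BiP, had 83.7, 128 and 129 CPM in BMP2 libraries and 65.3, 83.3 and 107 CPM in PBS libraries. BMP2 was the higher of each batch's pair, although PBS 3 exceeded BMP2 1. The log2 fold change was 0.41 (SE 0.26) without the block. With the block it was 0.41 (SE 0.13), and edgeR gave an adjusted p of 0.218.

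The other 3 partners showed no common direction across batches. Dnajb9 (ERdj4), a J-domain protein that assists degradation of misfolded proteins, was at 66.2 to 119 CPM in BMP2 libraries and 76.2 to 122 CPM in PBS libraries, with batch differences of 0.53, -0.04 and -0.20 on the log2 scale. Hyou1 (GRP170), an HSP70-related nucleotide exchange factor for BiP, was at 185 to 309 CPM in BMP2 libraries and 218 to 232 CPM in PBS libraries. The BMP2 values of Hyou1 spread over and beyond the narrow PBS range, and the log2 fold change was 0.03. Manf, a secreted ER-stress-inducible protein that binds BiP, was at 170.4 to 314 CPM in BMP2 libraries and 202 to 286 CPM in PBS libraries, also with a log2 fold change of 0.03. For Manf, batch 2 alone was higher with BMP2, by 0.59 on the log2 scale.

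Summed over its 7 genes, the HSP70 and HSP90 group reached 4312, 4649.9 and 2497 CPM in BMP2 libraries and 6576, 3560.4 and 3178 CPM in PBS libraries. That is 3819 ± 1158 CPM in BMP2 libraries and 4438 ± 1861 CPM in PBS libraries (SD, n = 3 each). The difference between the means was smaller than either SD. PBS 1 held the highest sum and BMP2 3 the lowest.

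The lectin chaperones and disulfide isomerases contained the most abundant genes of the set. P4hb (PDI, ENSMUSG00000025130, chr11:120560298-120573253), the founding protein disulfide isomerase, had 4522, 3319.9 and 1816 CPM in BMP2 libraries and 7114, 4003 and 3354 CPM in PBS libraries. Within each batch the BMP2 library was the lower one, by -0.65, -0.27 and -0.88 on the log2 scale in batches 1, 2 and 3, while BMP2 1 still exceeded PBS 2 and PBS 3. The log2 fold change was -0.58 (SE 0.40), and -0.60 (95% interval -0.99 to -0.22) with batch as a block, where edgeR gave an adjusted p of 0.168. P4hb was the only gene of the set that passed under any alternative run. With the block, edgeR without a filter on low counts gave -0.59 (adjusted p = 0.0225) and DESeq2's Wald test -0.62 (adjusted p = 0.0116). Those fits called 2.32% and 5.25% of all genes, and 1 gene of the set each. Without PBS 1 and without the block, the log2 fold change was -0.20. That fit kept BMP2 1, the library of the same batch. With the block and a whole batch left out, it was -0.59, -0.77 and -0.46 without batches 1, 2 and 3.

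Canx (calnexin, ENSMUSG00000020368, chr11:50293961-50325673), the membrane-bound lectin that retains monoglucosylated glycoproteins for folding, had 841, 1062 and 957 CPM in BMP2 libraries and 1364, 1203 and 1189 CPM in PBS libraries. All 3 BMP2 libraries lay below all 3 PBS libraries, as for 5.72% of all genes tested. The log2 fold change was -0.39 (SE 0.19) without the block. With the block it was -0.40 (SE 0.15), and edgeR gave an adjusted p of 0.271. The fold change stayed between -0.50 and -0.25 when a library or a batch was left out. With quantile normalization it was -0.12. Calr (calreticulin), the soluble partner of calnexin, had 2628, 2786 and 2194 CPM in BMP2 libraries and 3373, 2343 and 2337 CPM in PBS libraries. Its groups overlapped, with PBS 1 highest and BMP2 3 lowest, and the log2 fold change was -0.08 (SE 0.23). The difference between the 2 lectins was not tested.

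The remaining disulfide isomerases had smaller differences than P4hb. Pdia3 (ERp57), which works with both lectins on glycoproteins, was at 751 to 1098 CPM in BMP2 libraries and 916 to 1294 CPM in PBS libraries, with a log2 fold change of -0.15 (SE 0.24). Pdia4 (ERp72) was at 692, 1026 and 719 CPM in BMP2 libraries and 594, 772 and 737 CPM in PBS libraries, with a log2 fold change of 0.21 (SE 0.23). BMP2 2 was the highest library for Pdia4 and PBS 1 the lowest, whereas PBS 1 was the highest library for P4hb. Pdia6 (P5), an isomerase that also binds BiP, was at 342 to 538 CPM in BMP2 libraries and 424 to 502 CPM in PBS libraries, with a log2 fold change of 0.00 (SE 0.22). The 6 genes of this group summed to 8949.7 ± 1896 CPM in BMP2 libraries and 10991 ± 2844 CPM in PBS libraries (SD, n = 3 each), and the groups overlapped.

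**Figure D2:**
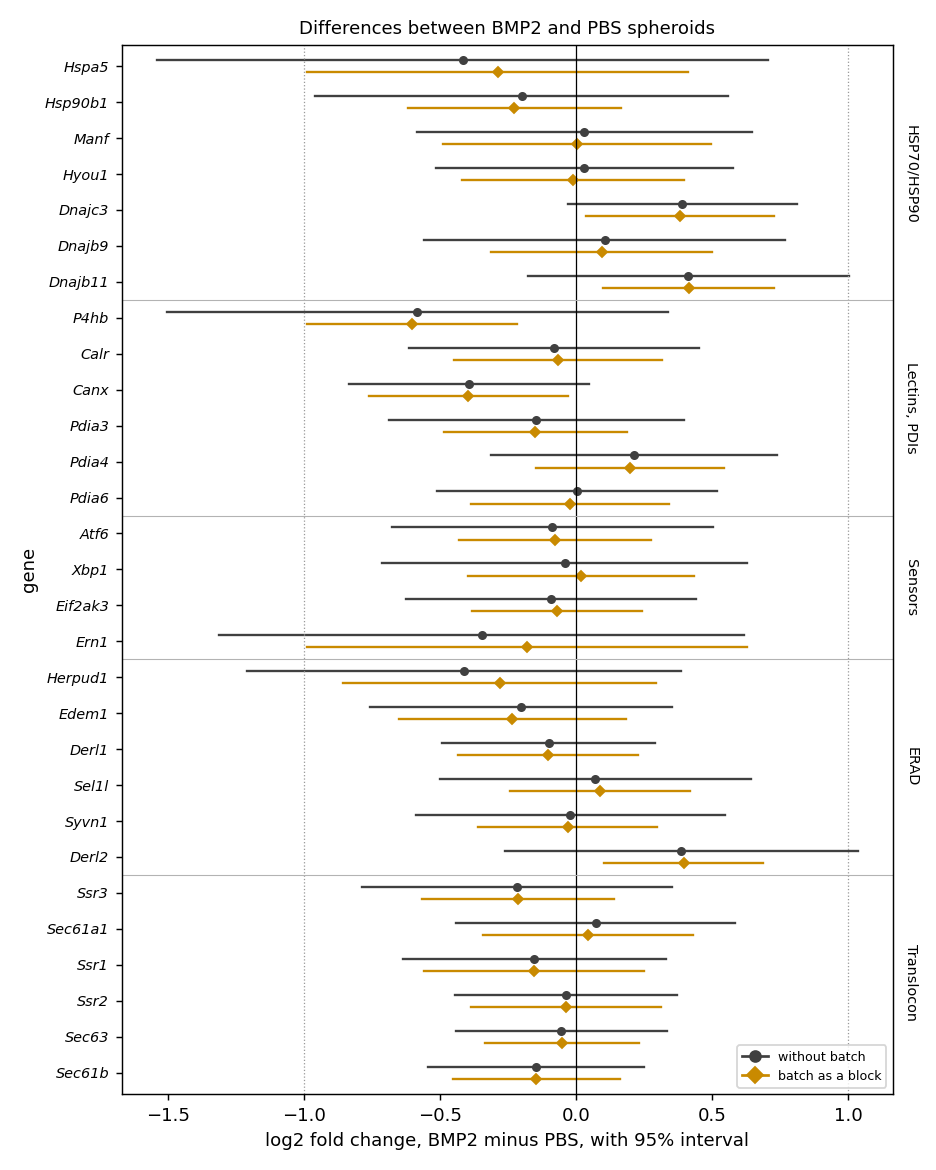
Log2 fold change (BMP2 minus PBS, x axis) of each tested gene with its 95% interval, without batch in grey and with batch as a block in orange, and dotted lines at 2-fold in either direction. Without batch no interval leaves out 0, and with batch the 5 intervals of Dnajb11, Dnajc3, Derl2, Canx and P4hb do.

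The sensors and their factors were expressed at moderate levels, and none of the 4 differed in a common direction across batches. Ern1 (IRE1-alpha), the kinase and endoribonuclease that splices Xbp1, had 37.8, 47.2 and 30.9 CPM in BMP2 libraries and 85.9, 27.9 and 33.6 CPM in PBS libraries. PBS 1 alone stood above the rest, and the log2 fold change of -0.35 (SE 0.42) was 0.32 without PBS 1. Xbp1, the factor activated by that splicing, had 133, 178 and 166 CPM in BMP2 libraries and 98.5, 182 and 211 CPM in PBS libraries. For Xbp1, PBS 1 was the lowest library and PBS 3 the highest, and the log2 fold change was -0.04 (SE 0.29). Counts per gene do not show how much of the Xbp1 RNA was spliced.

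Atf6, the membrane-bound factor released by proteolysis in the Golgi, had 134, 188 and 206 CPM in BMP2 libraries and 154, 162 and 245 CPM in PBS libraries. Eif2ak3 (PERK), the kinase that phosphorylates the initiation factor eIF2-alpha, had 60.3, 65.0 and 77.7 CPM in BMP2 libraries and 54.7, 69.7 and 92.0 CPM in PBS libraries. Both genes were highest in PBS 3, the groups overlapped, and both log2 fold changes were -0.09, with SE 0.26 for Atf6 and 0.23 for Eif2ak3. The 4 genes summed to 441 ± 65.9 CPM in BMP2 libraries and 472 ± 97.8 CPM in PBS libraries (SD, n = 3 each). In both groups the sum was lowest in batch 1 and highest in batch 3.

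Among the genes of ER-associated degradation, Herpud1 (HERP), a scaffold of the ubiquitin ligase complex and a sensitive target of the stress response, had 187, 171 and 171 CPM in BMP2 libraries and 382, 161 and 160.2 CPM in PBS libraries. The 5 libraries other than PBS 1 lay between 160.2 and 187 CPM. The log2 fold change was -0.41 (SE 0.35), and 0.13 without PBS 1. Derl2 (Derlin-2, ENSMUSG00000018442, chr11:71007164-71019841), a membrane protein of the retrotranslocation machinery, had 41.4, 62.8 and 68.6 CPM in BMP2 libraries and 30.5, 47.5 and 54.1 CPM in PBS libraries. In each batch BMP2 was higher, by 0.44, 0.40 and 0.34 on the log2 scale, and levels in both groups were lowest in batch 1. The log2 fold change was 0.39 (SE 0.28) without the block. With the block it was 0.39 (SE 0.12), and edgeR gave an adjusted p of 0.209.

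The paralogues of Derl2 did not share its values. Derl1 was at 133 to 158 CPM in BMP2 libraries and 143 to 159.9 CPM in PBS libraries, with a log2 fold change of -0.10 (SE 0.17). Derl3 had estimated counts of 0.9, 0 and 1.1 in BMP2 libraries and 0 in all PBS libraries, did not pass the filter, and is given no fold change. Edem1, a lectin that extracts misfolded glycoproteins from the calnexin cycle, had 144, 243 and 161 CPM in BMP2 libraries and 185, 211 and 234 CPM in PBS libraries. Edem1 overlapped between groups, with BMP2 2 highest and BMP2 1 lowest, and had a log2 fold change of -0.20 (SE 0.24).

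Syvn1 (HRD1), the ubiquitin ligase of this pathway, was at 34.7 to 57.0 CPM in BMP2 libraries and 36.5 to 52.9 CPM in PBS libraries, with a log2 fold change of -0.02. Sel1l, the adaptor of HRD1, was at 124 to 180.4 CPM in BMP2 libraries and 102 to 167 CPM in PBS libraries, with a log2 fold change of 0.07. Neither gene kept 1 direction across batches. The 7 degradation genes, Derl3 included, summed to 755 ± 99.3 CPM in BMP2 libraries and 831 ± 57.9 CPM in PBS libraries (SD, n = 3 each).

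The translocon genes were the least variable of the 5 role groups, with a median ratio of 1.38 between the highest and the lowest library, against 1.72 over the 29 genes and 1.99 over all genes tested. Sec61b, the beta subunit of the SEC61 channel, had 42.8, 42.2 and 39.1 CPM in BMP2 libraries and 50.4, 43.4 and 43.8 CPM in PBS libraries. All BMP2 values lay below all PBS values, as for 5.72% of all genes tested, but by little, with a log2 fold change of -0.15 (SE 0.17). Sec61a1, the pore-forming subunit, was at 362 to 593 CPM in BMP2 libraries and 451 to 485 CPM in PBS libraries, with a log2 fold change of 0.07. Sec63, a J-domain protein that recruits BiP to the channel, was at 94.2 to 105 CPM in BMP2 libraries and 96.3 to 113 CPM in PBS libraries. Sec63 was lower in BMP2 in each batch by at most 0.11 on the log2 scale, a difference smaller than the range within either group.

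Ssr1, Ssr2 and Ssr3 encode subunits of the translocon-associated protein complex, which helps certain signal sequences to enter. Ssr3 had 983, 951 and 667 CPM in BMP2 libraries and 1270.0, 911 and 843 CPM in PBS libraries, with a log2 fold change of -0.22 (SE 0.25). Ssr1 had 183, 241 and 181 CPM in BMP2 libraries and 265, 211 and 197 CPM in PBS libraries, with a log2 fold change of -0.15 (SE 0.21). Both were highest in PBS 1 and lowest in BMP2 3, and both were higher with BMP2 in batch 2 alone. Ssr2 was at 184 to 216 CPM in BMP2 libraries and 189 to 225 CPM in PBS libraries, with a log2 fold change of -0.04. The 6 translocon genes summed to 1893 ± 228 CPM in BMP2 libraries and 2046 ± 274 CPM in PBS libraries (SD, n = 3 each). As shares of unscaled counts, they took 0.194%, 0.212% and 0.184% in BMP2 libraries and 0.205%, 0.189% and 0.190% in PBS libraries, so the order of the means depends on the scaling.

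**Figure D3:**
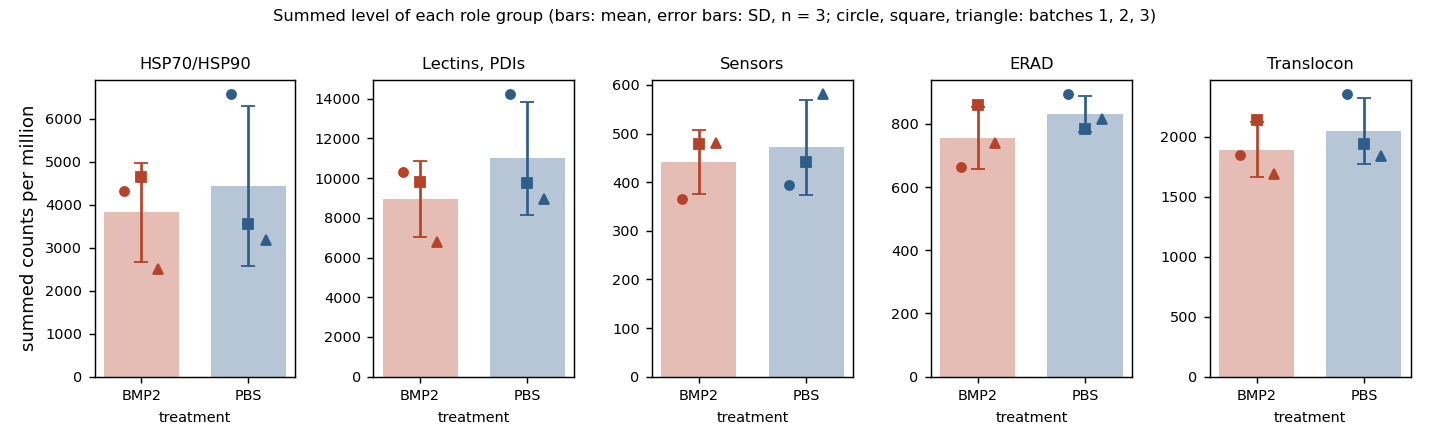
Summed level of each role group in CPM, with bars for the mean and error bars for the SD over 3 libraries, BMP2 left of PBS, and a marker for each batch. The points of both treatments overlap in each of the 5 role groups, and the PBS circle of batch 1 is the highest point for all but the sensors.

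Per kilobase of merged exons, P4hb was the most abundant gene of the set at a mean of 1125 CPM per kilobase in BMP2 libraries and 1686 in PBS libraries. Calr followed at 881 CPM per kilobase in BMP2 libraries and 932 in PBS libraries. Hspa5 was at 350.0 CPM per kilobase in BMP2 libraries and 467 in PBS libraries, and Hsp90b1 at 361 in BMP2 libraries and 415 in PBS libraries. Of the 29 tested genes, Ern1 was among the lowest at 4.73 CPM per kilobase in BMP2 libraries and 6.01 in PBS libraries, with Derl2 at 7.15 in BMP2 libraries and 5.47 in PBS libraries. The 30 genes took 1.83%, 1.77% and 1.32% of all counts in the BMP2 libraries of batches 1, 2 and 3, against 2.13%, 1.61% and 1.59% in the PBS libraries.

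The precision of the differences was read from the 95% intervals. They are not adjusted for the number of genes, so an interval that leaves out 0 is not a call. Without batch, the interval of 23 of the 29 genes lay within 2-fold in either direction, against 55.4% of all genes tested. With batch as a block, which leaves 2 residual degrees of freedom, all 29 did, against 69.4% of all genes. The median half-width of the interval on the log2 scale was 0.55 without batch and 0.36 with it. Of the other 6 without batch, the intervals of Hspa5, Ern1, Herpud1 and P4hb reached beyond 2-fold lower and those of Dnajb11 and Derl2 beyond 2-fold higher. For 28 of the 29 genes the range within at least 1 group exceeded the fold change, as it did for 94.4% of all genes tested.

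Within batches, many genes of the set followed 1 order, in which BMP2 was lower in batch 1, higher in batch 2 and lower in batch 3. This order was noticed after the values were seen. It held for 13 of the 29 genes, against 7.48% of all genes tested. The count of genes with BMP2 above PBS was 9 in batch 1, 21 in batch 2 and 6 in batch 3. The median difference over the 29 genes was -0.24, 0.19 and -0.18 on the log2 scale in batches 1, 2 and 3, while over all genes it was 0.02, 0.00 and 0.02. Higher with BMP2 in all 3 batches were 3 of 29 genes, against 22.8% of all genes tested. Lower in all 3 batches were 4 of 29, against 21.1% of all genes.

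**Figure D4:**
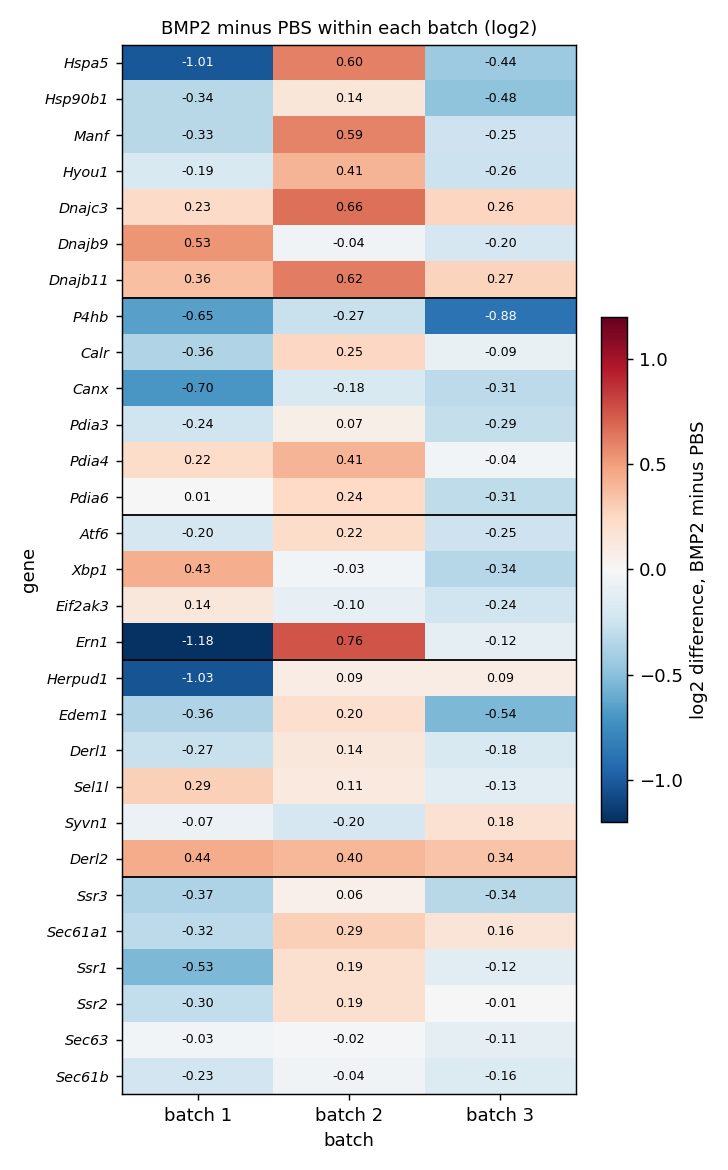
Log2 difference of BMP2 minus PBS within each batch (columns) for each tested gene (rows, by role group), with red for higher and blue for lower in the BMP2 library. Batch 2 is mostly red and batches 1 and 3 mostly blue, while Dnajb11, Dnajc3 and Derl2 are red and P4hb, Canx, Sec61b and Sec63 blue in every column.

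The highest and the lowest values of the set were not spread evenly over the libraries. PBS 1 was the highest library for 13 of the 29 genes (44.8%, against 29.7% of all genes tested) and the lowest for 6 (20.7%, against 30.9%). BMP2 3 was the lowest library for 12 (41.4%, against 23.0%), and BMP2 2 the highest for 8 (27.6%, against 10.1%). PBS 1 exceeded the mean of the other PBS libraries by 1.59 on the log2 scale for Hspa5, 1.48 for Ern1, 1.25 for Herpud1 and 0.96 for P4hb, and lay below it by -0.99 for Xbp1, -0.73 for Derl2 and -0.69 for Sel1l. PBS 1 thus differed from the other PBS libraries in both directions within the set. Without PBS 1 the median log2 fold change of the 29 genes was 0.00, with 15 above 0 and 14 below. Quantile normalization gave the same split of 15 and 14 with all libraries kept. The part of library preparation or culture in the values of PBS 1 was not tested.

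The rest of the pathway was read from lists of other ER folding factors, degradation genes, translocon and glycosylation genes, and regulators of the response, with 115 symbols, of which 108 were tested. Without batch, edgeR called 0 of the 108, against 0.0464% of all genes, with 5 at an unadjusted p under 0.05, against 5.38%. DESeq2's Wald test called 1, Ddit4, against 1.03% of all genes. With batch as a block, edgeR called 1, Ddit4, which was lower with BMP2, against 0.735% of all genes. In that fit 12 of the 108 were at an unadjusted p under 0.05, against 17% of all genes. Ddit4 (REDD1), an inhibitor of mTORC1 induced by several stresses, had 46.8, 33.6 and 37.9 CPM in BMP2 libraries and 172, 63.7 and 89.9 CPM in PBS libraries. All BMP2 libraries lay below all PBS libraries, as for 5.72% of all genes tested. The log2 fold change was -1.35 (SE 0.20, edgeR adjusted p = 0.0466) with the block and -1.46 (SE 0.36, edgeR adjusted p = 0.437) without it.

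Other stress targets in the list of regulators had lower values with BMP2 without passing in edgeR with its filter when all 6 libraries were fitted. With the block and a batch left out, that edgeR fit called Atf3 and Ppp1r15a without batch 1. Without batch 3 it called Bbc3, Atf3 and Ppp1r15a. Ddit4 was called in both, and over all genes these fits called 531 of 12909 and 218 of 13165. With the block and all 6 libraries, Bbc3, Atf3 and Ppp1r15a passed in DESeq2's Wald test and in edgeR with no filter. Those fits called 5.25% and 2.32% of all genes and, with Ddit4, 4 of the 108 each. Bbc3 (PUMA), a pro-apoptotic BH3-only gene, averaged 3.00 ± 0.829 CPM in BMP2 libraries and 8.25 ± 4.77 CPM in PBS libraries (SD, n = 3 each), with a log2 fold change of -1.46. In edgeR its adjusted p was 0.690 without batch and 0.0846 with it. Atf3, Ppp1r15a and Ddit3, which lie downstream of PERK and were picked out after their values were seen, differed among themselves. Atf3, a stress-induced transcription factor, had 22.5, 9.28 and 4.37 CPM in BMP2 libraries and 34.0, 31.03 and 23.6 CPM in PBS libraries. Its BMP2 values lay wholly below its PBS values, as for 5.72% of all genes tested, with a log2 fold change of -1.30 (SE 0.52). Ppp1r15a (GADD34), the phosphatase subunit that reverses PERK signalling, had 110.4, 61.8 and 44.3 CPM in BMP2 libraries and 185, 139 and 61.3 CPM in PBS libraries. It was lower with BMP2 in each batch while the groups overlapped, with a log2 fold change of -0.83 (SE 0.45). Ddit3 (CHOP), a transcription factor of terminal ER stress, had 199.995, 188 and 105 CPM in BMP2 libraries and 379, 151 and 146 CPM in PBS libraries. As for Hspa5 and Herpud1, PBS 1 was the highest library for Ddit3. Mbtps2, the protease that releases ATF6 in the Golgi, averaged 23.7 ± 2.63 CPM in BMP2 libraries and 16.3 ± 2.78 CPM in PBS libraries (SD, n = 3 each), with a log2 fold change of 0.54 and an edgeR adjusted p of 0.883.

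In the other lists the 3 genes with the smallest p were mostly higher with BMP2, and none passed in either fit. Among the folding factors, the saposin-like Cnpy2 had a log2 fold change of 0.53 (SE 0.20), the thioredoxin-related Tmx3 0.50 (SE 0.25) and the J-domain reductase Dnajc10 0.41 (SE 0.24). Among the degradation genes, the values were 0.29 (SE 0.18) for Selenos, a selenoprotein of the retrotranslocation complex, 0.43 (SE 0.31) for the ubiquitin ligase Rnf139 and -0.30 (SE 0.20) for the ubiquitin-conjugating Ube2j2. For translocon and glycosylation genes, the values were 0.44 (SE 0.24) for the channel subunit Sec61g, 0.25 (SE 0.18) for the oligosaccharyltransferase subunit Ostc and -0.41 (SE 0.25) for Srp68 of the signal recognition particle. Medians of the log2 fold change were 0.00 over 29 folding factors, 0.10 over 24 degradation genes, 0.04 over 29 translocon genes and -0.03 over 26 regulators. Of the 24 degradation genes, 10 were higher with BMP2 in all 3 batches, against 22.8% of all genes, and 0 were lower in all 3, against 21.1%.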

How the data were processed

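For 6 libraries the authors deposited estimated counts by gene, made by kallisto and not always whole. The version was kallisto 0.44.0 and the build GRCm38.p6, per the submitters' processing notes, and library preparation used Illumina TruSeq on 500 ng of RNA, per the labels. For the annotation release, the strand setting and the summing of transcripts to genes, nothing is stated in the sources used. Without a known strand setting, reads of a gene and of an overlapping gene on the opposite strand cannot be told apart. Among the genes described, Derl2 shares 231 exonic bases with Mis12, Manf 146 with Dcaf1 and Syvn1 91 with Mrpl49. Reads in sequence shared with other genes are divided by likelihood. The share of 31-mers found in other annotated genes was highest for Sec61b (23.5%), Ssr2 (15.0%), Hsp90b1 (12.3%) and Dnajb9 (10.8%), so their counts are less certain.

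Counts were rounded to whole numbers and fitted on the whole table with edgeR 4.0.16 in R 4.3.3 (filterByExpr with its minimum of 10 counts, TMM, quasi-likelihood test, treatment alone, Benjamini-Hochberg, threshold 0.05). Each SE is the fold change divided by the root of its F statistic. Differences within batches use a prior count of 2. Symbols, positions and exon lengths came from GENCODE M21 on GRCm38, with 34679 of 34981 identifiers matched. Totals of 27821900 to 36856500 counts put 3 counts at 0.0749 to 0.103 CPM. That is below every tested gene of the set. Replicate numbers mark batches per the labels, and deviations from the group means correlated within batches at 0.51, 0.25 and 0.52 across all genes tested and at 0.71, 0.076 and 0.82 across the set, so the samples were taken as paired. The main fit has no block and so does not use the pairing. SEs and intervals are of the main fit unless the block is named. The fit with batch as a block leaves 2 residual degrees of freedom. Alternatives were the block, no filter, a mean of at least 100 counts, DESeq2 1.42.0 size factors and Wald test, quantile normalization with limma 3.58.1, and leaving out each library or batch. Scripts were tested on simulated data. Promoter motifs and shared 31-mers were searched with Python 3.11.15. All genes of the set were to be named, and from each other list the 3 with the smallest unadjusted p and any gene that passed. The genes, lists and tests were chosen with earlier results of these data known.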

Additional observations from a re-analysis of the deposited data

How the results depend on the processing

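The count of 0 called genes of the set became 1 (P4hb, lower) in 2 alternatives, the replicate block with no filter and the replicate block in DESeq2's Wald test, and stayed 0 in the others, leaving out each library or batch included. Over all genes tested, 6 calls became 95 with the replicate block, 35 with no filter and 130 with DESeq2's Wald test. With the block and another choice they became 500 (no filter), 98 (DESeq2 size factors), 116 (quantile normalization) and 653 (DESeq2's Wald test). They ran from 2 to 10 with a library left out, and with the block were 531, 27 and 218 without batches 1, 2 and 3. For the other pathway lists, 0 became 1 (Ddit4) with the replicate block, with DESeq2's Wald test, and with the block and DESeq2 size factors or quantile normalization. It became 4 (Ddit4, Bbc3, Atf3 and Ppp1r15a, all lower) with the block and no filter or DESeq2's Wald test. With the block it was 3 (Ddit4, Atf3 and Ppp1r15a) without batch 1 and 0 without batch 2. Without batch 3 it was 4 (Ddit4, Bbc3, Atf3 and Ppp1r15a), and it was 0 with any library left out. The median log2 fold change of the set lay between -0.22 and 0.03. Of 551 values of single genes, 469 kept their direction and side of the threshold, 80 changed direction and 2 (P4hb) newly passed. Dnajb11, Dnajc3, Canx, P4hb, Edem1, Derl1, Derl2, Sec61b and Ssr3 never changed direction.

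Log2 fold changes that turned sign follow. Quantile normalization gave 0.026 for Hsp90b1, 0.10 for Calr, 0.083 for Pdia3, 0.062 for Xbp1 and 0.034 for Ssr2, with or without the block. The replicate block gave -0.011 for Hyou1, -0.022 for Pdia6 and 0.018 for Xbp1. The block with DESeq2 size factors or its Wald test gave -0.025 for Hyou1, -0.013 for Manf, -0.036 for Pdia6 and 0.0037 for Xbp1, and the block with no filter gave -0.0076 for Pdia6 and 0.032 for Xbp1. DESeq2 size factors or its Wald test alone gave -0.013 for Pdia6. With the block and without batch 1, values were 0.074 for Hspa5, -0.13 for Dnajb9, 0.072 for Calr, -0.044 for Pdia6, 0.31 for Ern1, 0.081 for Herpud1, -0.018 for Sel1l, 0.027 for Ssr1 and 0.085 for Ssr2. Without batch 2 they were -0.22 for Hyou1, -0.29 for Manf, -0.15 for Pdia6, 0.048 for Xbp1, 0.060 for Syvn1 and -0.075 for Sec61a1, and without batch 3 0.20 for Xbp1, 0.0081 for Atf6, 0.017 for Eif2ak3 and -0.015 for Sec61a1. With 1 library left out, values ran from -0.68 to 0.32 for Hspa5, -0.37 to 0.056 for Hsp90b1, -0.26 to 0.16 for Hyou1, -0.054 to 0.37 for Dnajb9, -0.23 to 0.22 for Manf, -0.17 to 0.11 for Calr, -0.25 to 0.0071 for Pdia3, -0.0028 to 0.32 for Pdia4, -0.13 to 0.18 for Pdia6 and -0.31 to 0.18 for Xbp1. They ran from -0.22 to 0.16 for Atf6, -0.62 to 0.32 for Ern1, -0.26 to 0.12 for Eif2ak3, -0.62 to 0.13 for Herpud1, -0.13 to 0.20 for Sel1l, -0.21 to 0.15 for Syvn1, -0.11 to 0.25 for Sec61a1, -0.11 to 0.031 for Sec63 and -0.12 to 0.037 for Ssr2. The cause was not tested.

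Summing near-identical copies was not run, since no gene of the set has such a copy in the table. With 3 libraries per group, the printed intervals give the precision of each difference.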

Other observations

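Chaperones outside the ER were listed for comparison, and 31 of 34 cytosolic and mitochondrial ones were tested. No gene of this list passed in edgeR without or with batch as a block, while Hspb1 passed, lower, with the block in DESeq2's Wald test and in edgeR with no filter. With the block and a batch left out, edgeR called Dnajb1 without batch 1 and Hspa1b and Hspb1 without batch 3. In edgeR, 2 without batch and 8 with it were at an unadjusted p under 0.05, all lower in BMP2 libraries, against 5.38% and 17% of all genes tested. Of the 31, 28 had a log2 fold change below 0, against 6319 of all 12929 genes tested. The median over the 31 was -0.21 (-0.23 with the block), and 16 of them were lower with BMP2 in all 3 batches, against 21.1% of all genes tested. With quantile normalization the median was -0.10, with 25 of 31 below 0, and without PBS 1 it was -0.14, with 24 of 31 below 0. PBS 1 was the highest library for 19 of the 31 (61.3%, against 29.7% of all genes tested). Hspa1b, an inducible cytosolic HSP70, had 2.77, 1.46 and 1.52 CPM in BMP2 libraries and 86.4, 3.01 and 1.86 CPM in PBS libraries. Hspb1 (HSP25), a small heat shock protein, had 0.514, 0.409 and 0.0749 CPM in BMP2 libraries and 21.4, 0.450 and 0.359 CPM in PBS libraries. Both genes were far higher in PBS 1 than in any other library. Cct2, a subunit of the cytosolic chaperonin, had 409.8, 368 and 386 CPM in BMP2 libraries and 630.3, 426 and 447 CPM in PBS libraries. Its BMP2 values lay wholly below its PBS values, as for 5.72% of all genes tested, with a log2 fold change of -0.37 (SE 0.21).

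Across the 29 genes of the ER set, the difference of PBS 1 from the other PBS libraries was set against traits of the gene. Its Spearman rho with the level was 0.56, against 0.04 across all genes tested. The level is taken over all libraries, so the PBS 1 value enters both quantities. With exonic length rho was -0.27, against -0.11 across all genes, and with GC content it was -0.03, against -0.05. The values are a description over genes that share 3 libraries.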
